A study of Homo sapiens with 10 samples.

Results

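This report describes 10 genes of the interleukin-6 (IL-6) family and its C/EBP transcription factors, taken by gene symbol from the 58735 genes of the deposited count table. They are the cytokine genes IL6, IL11 and LIF, the receptor genes IL6ST, LIFR and OSMR, the signalling genes STAT3 and SOCS3, and the transcription factor genes CEBPB and CEBPD. All 10 symbols were found once. The genes were selected on values of the same contrast, namely their log2 fold changes and levels in an earlier analysis. The cells were CH157-MN, a line long established from a human meningioma, a tumour of the membranes around the brain. Poly(A) RNA was sequenced in 5 libraries from cells given phosphate-buffered saline (PBS) and 5 from cells given an antibody-drug conjugate (ADC). The conjugate was given at 100 nM and the treated cells were harvested on day 3. For the PBS libraries the sample labels used here give no harvest day. A humanised antibody against the somatostatin receptor SSTR2 carried the payload MMAF, an auristatin that blocks microtubule assembly. All libraries come from 1 cell line, and no group analysed here received the antibody or the payload alone, so their parts cannot be told apart. The labels do not say that replicates were separate cultures, so every p-value measures only the spread between these libraries, which may be technical.

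IL-6 family cytokines share a signal-transducing receptor chain, gp130, encoded by IL6ST. IL-6 and IL-11 first bind their own receptors, IL6R and IL11RA, and then gp130, while LIF signals through LIFR with gp130 and oncostatin M through OSMR or LIFR with gp130. The receptors activate JAK kinases and the transcription factor STAT3, and the STAT3 target SOCS3 binds gp130 and shuts the signal off. C/EBP-beta and C/EBP-delta are transcription factors of the acute phase response that act on the promoters of cytokine and acute phase genes.

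The 3 cytokine genes, OSMR and CEBPD were higher in ADC than in PBS libraries, while IL6ST, LIFR, STAT3, SOCS3 and CEBPB did not pass the test. All 10 genes passed the filter on low counts, and the test was edgeR's quasi-likelihood test fitted to all 14504 genes that passed, its p-values adjusted by Benjamini-Hochberg over all of them and called under 0.05. Of the 10 genes 5 were called (20.8% of all tested genes): 5 higher, against 10.8% of all tested genes, and 0 lower, against 10%. At an unadjusted p under 0.05, 1 gene was lower (SOCS3), DESeq2 called 1 lower and limma-voom 0. The groups did not overlap for 5 of the 10 genes, against 14.2% of all tested genes, and in all 5 every ADC library was above every PBS library, against 7.29%. A called change of at least 2-fold was seen for 3 of the 10 genes, against 1.17% of all tested genes, and all 3 were higher, against 0.931%. Adjusted p-values (edgeR) ran from 2.7e-13 to 8.3e-06 for the 5 called genes and from 0.054 to 0.32 for the other 5. The median log2 fold change (ADC minus PBS) was 0.24 over the 10 genes and -0.00 over all tested genes. Because of how the genes were selected, their counts and folds are a description, and nothing is read from these shares.

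**Figure D1:**
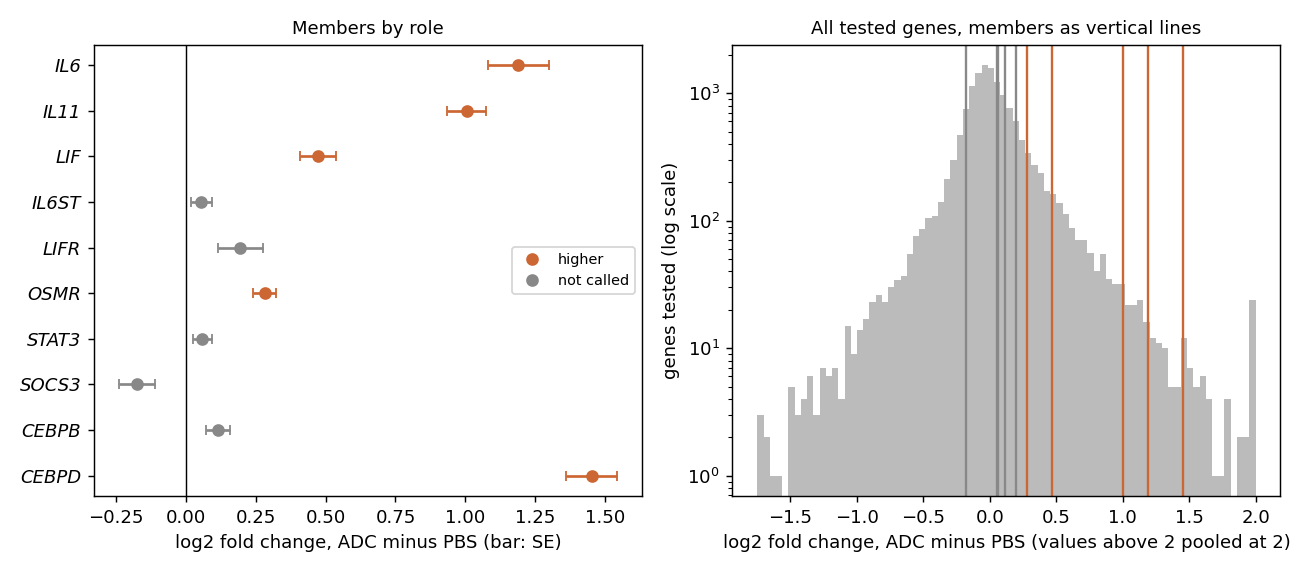
Left, log2 fold change (ADC minus PBS, x axis) of the 10 genes in order of their roles, with the SE as a bar. Right, the number of tested genes (log scale) by log2 fold change, with the 10 genes as vertical lines. CEBPD, IL6 and IL11 lie at 1.45, 1.19 and 1.005, and SOCS3 lies at -0.17.

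Total counts ran from 28262162 to 36463724 per library, and mitochondrial genes held 1.19% to 2.63% of them. Of the called genes of the whole table, 51.8% were higher, or 63.3% when counts were scaled to library size alone. Levels below are in CPM, a gene's counts relative to the library total, scaled with TMM factors, which correct for library composition. The cells carried the transcripts of vimentin (VIM, 3398 ± 123 CPM in PBS, SD, n = 5) and claudin 11 (CLDN11, 389 ± 7 CPM), which meningiomas express. NF2, also on the marker list, was at 56.6 ± 3.3 CPM in PBS libraries. CLDN11 was called lower, at 364 ± 7 CPM after ADC, and the marker S100A6 was called higher, from 220.3 ± 13.2 to 311 ± 11 CPM. All the other listed meningioma markers were scarce: PTGDS, PGR and CDH1 had a mean of 0 CPM in PBS libraries. Means in PBS libraries were 0.0426 CPM for DSP, 0.181 CPM for CRABP2 and 0.352 CPM for MUC1. SSTR2, the conjugate's target, had 0.297 ± 0.263 CPM in PBS libraries and 0.430 ± 0.103 CPM after ADC, a difference that was not called. In bulk RNA a gene's level cannot separate how many cells express it from how much RNA each cell holds.

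IL6, the founding cytokine of the family and a driver of the acute phase response, was 5.44, 6.97, 6.57, 7.28 and 5.77 CPM in PBS replicates 1 to 5. In ADC replicates 1 to 5 it was 14.6, 13.2, 13.2, 13.6 and 18.4 CPM. Every ADC library lay above every PBS library, and ADC replicate 5 stood highest. The log2 fold change was 1.19 (SE 0.11), or 2.28-fold. IL6 lies opposite STEAP1B and an antisense transcript, with which it shares 20.7% of its exonic bases on the other strand. STEAP1B had 1471 to 2146 counts per library against 183 to 524 for IL6, was not called, and had a log2 fold change of -0.05 (SE 0.05). Whether the counting used strand is not given in the labels, so reads of the shared bases cannot be told apart. The antisense transcript, AC073072.1, had 11 to 38 counts and was not called.

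IL11, a cytokine of haematopoietic and stromal tissue, was 22.6, 24.6, 25.7, 24.6 and 26.1 CPM in PBS replicates 1 to 5. It was 59.9, 47.8, 43.0, 48.9 and 48.4 CPM in ADC replicates 1 to 5. The groups were far apart, with ADC replicate 1 highest, and the log2 fold change was 1.005 (SE 0.07), or 2.01-fold. The relative spread was wider after ADC, with a coefficient of variation of 12.5% against 5.57% in PBS. No other gene overlaps the span of IL11.

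LIF, named for its action on leukaemia cells and known for holding stem cells undifferentiated, was 21.7, 21.1, 23.4, 22.1 and 21.2 CPM in PBS replicates 1 to 5. It was 30.5, 28.1, 32.2, 31.9 and 29.1 CPM in ADC replicates 1 to 5. The groups did not overlap, but the change was the smallest of the 3 cytokine genes, with a log2 fold change of 0.47 (SE 0.06), or 1.39-fold. The library highest in LIF was ADC replicate 3, while ADC replicate 5 was highest in IL6 and ADC replicate 1 in IL11.

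**Figure D2:**
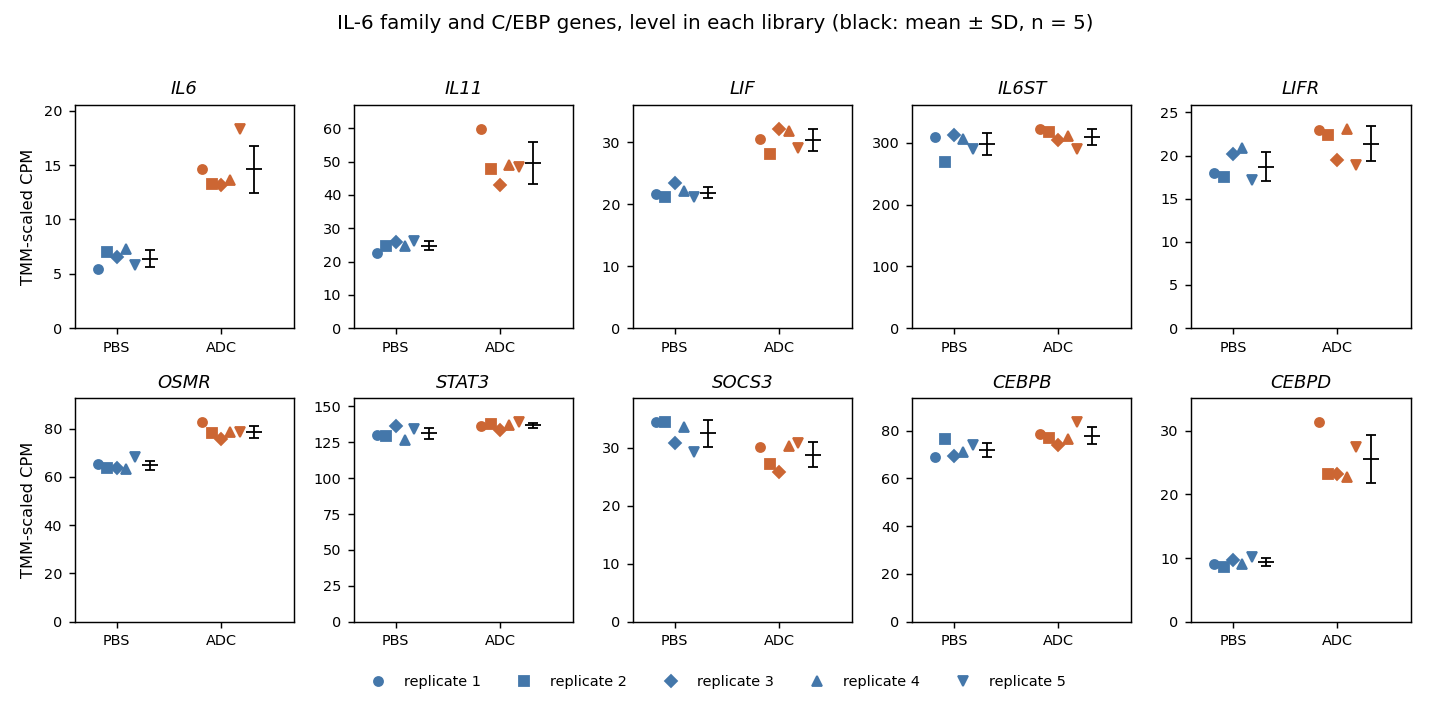
TMM-scaled CPM (y axis, from 0) of each of the 10 genes in the 5 PBS (blue) and 5 ADC (orange) libraries, with 1 symbol per replicate number and the mean and SD in black. IL6, IL11, LIF, OSMR and CEBPD have all ADC points above all PBS points, and the points of the other genes overlap.

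Bases before an annotated start are shown for IL6 and IL11, which had the largest increases of the 3 cytokine genes IL6, IL11 and LIF. RefSeq windows on GRCh38.p14 were matched by symbol for 8 of the 10 genes, and LIF and CEBPD had none. The 250 bases before each annotated start were searched on both strands for 4 motifs. The IL6 stretch runs from chr7:22726950-22727146 on the plus strand, bases -250 to -54 from the start, and stops where an annotated exon begins. The counted IL6 gene starts earlier, at 22725884, so this stretch lies within its span. The IL11 stretch runs from chr19:55370464-55370713 on the minus strand, bases -250 to -1. Both are written 5′ to 3′, and capitals mark the motif matches.
IL6: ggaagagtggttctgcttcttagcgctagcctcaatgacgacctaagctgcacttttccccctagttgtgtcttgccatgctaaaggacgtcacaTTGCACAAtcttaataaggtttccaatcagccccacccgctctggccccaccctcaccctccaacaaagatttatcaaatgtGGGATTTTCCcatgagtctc
IL11: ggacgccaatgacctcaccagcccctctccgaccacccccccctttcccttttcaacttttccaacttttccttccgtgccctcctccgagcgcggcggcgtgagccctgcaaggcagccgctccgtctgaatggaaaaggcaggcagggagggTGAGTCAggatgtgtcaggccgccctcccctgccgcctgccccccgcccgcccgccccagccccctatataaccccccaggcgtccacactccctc

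In IL6 the C/EBP motif TTGCNNAA matched at bases -155 to -148 and the NF-kB motif, GGGA and TTCC with 2 bases between them, at bases -73 to -64. In IL11 the AP-1 motif TGANTCA matched at bases -96 to -90. The matches did not overlap one another. Among all 35116 RefSeq windows of 250 bases, 9.05% held the C/EBP motif, 1.40% the NF-kB motif and 6.57% the AP-1 motif. The STAT motif TTCNNNGAA, present in 6.57% of windows, matched in windows of LIFR and in none of IL6, IL11, IL6ST, OSMR, STAT3, SOCS3 or CEBPB. For SOCS3 the windows searched were chr17:78360926-78361175 and chr17:78359668-78359917. The counted SOCS3 gene starts at 78360077 on the minus strand, and the bases just before that start were not searched. The C/EBP motif also matched in windows of LIFR and OSMR, at bases that other transcripts count as exon. The LIFR STAT match at bases -182 to -174 also lay wholly in such bases, and the one at bases -165 to -157 did not. A match describes the letters of a window and is not a measured binding site.

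The family holds further ligand genes, of which 8 were listed and 4 passed the filter. Of these 4, 2 rose and 0 fell (edgeR, with 0 lower at an unadjusted p under 0.05, by DESeq2 and by limma-voom), against 10.8% of all tested genes called higher and 10% called lower. EBI3, the subunit that IL-27 and IL-35 share, ran from 0.204 to 0.566 CPM in PBS and from 0.877 to 2.24 CPM in ADC libraries. The groups did not overlap, and the log2 fold change was 1.80 (SE 0.38, edgeR adjusted p = 0.00074). These levels rest on only 6 to 16 counts per PBS library and 30 to 64 per ADC library. Without ADC replicate 5 the log2 fold change of EBI3 was 1.52. CLCF1, a cytokine that acts through the CNTF receptor, rose from 10.9 ± 1.1 to 13.2 ± 1.4 CPM (SD, n = 5), with overlapping groups and a log2 fold change of 0.28 (SE 0.10, edgeR adjusted p = 0.036). Leaving out any single library but PBS replicate 5 or ADC replicate 3 ended the call of CLCF1, at edgeR adjusted p of 0.0525 to 0.0978.

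CNTF and CTF1, which encode ciliary neurotrophic factor and cardiotrophin 1, had log2 fold changes of -0.02 (SE 0.42) and 0.47 (SE 0.35) and were not called. CNTF ran from 0.505 to 1.65 CPM in PBS libraries and from 0.280 to 1.76 CPM after ADC, so the groups covered much the same range. OSM, the gene of oncostatin M, reached at most 4 counts in a library and was not tested, nor were IL27 and IL31. IL27 and IL31 had 0 counts in all 10 libraries, which allows up to 0.0823 to 0.106 CPM per library (3 counts, counting error only).

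Among the 3 receptor genes, IL6ST was the most abundant per exon length and LIFR the least, as the levels in CPM per kb further on show. IL6ST encodes gp130, which IL-6, IL-11, LIF and oncostatin M use and IL-31 does not. Its level was 308.9, 269, 312, 306 and 290.3 CPM in PBS replicates 1 to 5. It was 323, 318, 304, 310.4 and 290.4 CPM in ADC replicates 1 to 5. The groups overlapped over most of their range, and the log2 fold change was 0.06 (SE 0.04), which did not pass.

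OSMR, the oncostatin M receptor chain that also pairs with IL31RA, was 65.2, 63.5, 63.5, 63.3 and 68.1 CPM in PBS replicates 1 to 5. It was 82.6, 78.1, 75.6, 78.7 and 78.5 CPM in ADC replicates 1 to 5. All ADC libraries were above all PBS libraries, and the narrow spread, 3.18% and 3.19% of the mean, separated a small change (log2 fold change 0.28, SE 0.04, or 1.22-fold). LIFR, the LIF receptor chain, was 18.0, 17.5, 20.1, 20.8 and 17.2 CPM in PBS replicates 1 to 5. It was 23.0, 22.4, 19.5, 23.1 and 19.0 CPM in ADC replicates 1 to 5. ADC replicates 3 and 5 fell within the PBS range, and the log2 fold change of 0.20 (SE 0.08) was not called. It passed without PBS replicate 4 (edgeR adjusted p = 0.047) or ADC replicate 5 (edgeR adjusted p = 0.039).

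LIFR and OSMR are neighbours on chromosome 5, LIFR at 38474963 to 38608354 on the minus strand and OSMR at 38845858 to 38945596 on the plus strand of hg38. IL6ST lies further along at 55935095 to 55994993 on the minus strand. OSMR shares 3.19% of its exonic bases with RICTOR on the other strand, and RICTOR was not called (log2 fold change -0.03, SE 0.06).

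Of 5 further receptor genes 4 passed the filter, and 1 rose and 0 fell (edgeR, with 0 lower at an unadjusted p under 0.05, by DESeq2 and by limma-voom), beside 10.8% and 10% of all tested genes. IL31RA, the partner of OSMR in the IL-31 receptor, rose from 5.69 ± 0.68 to 7.44 ± 1.33 CPM (SD, n = 5), with a log2 fold change of 0.39 (SE 0.13, edgeR adjusted p = 0.028). Its groups overlapped, and the call ended without any of PBS replicates 1, 2 and 5 or ADC replicates 2, 3 and 4, at edgeR adjusted p of 0.0562 to 0.114. IL6R, which binds IL-6 before gp130 does, was 7.06 ± 0.85 CPM in PBS libraries and 6.11 ± 1.06 CPM after ADC, and IL11RA was 1.60 ± 0.11 and 1.56 ± 0.30 CPM. Neither was called, at -0.21 (SE 0.13) and -0.03 (SE 0.24). IL27RA was not called (0.24, SE 0.09, edgeR adjusted p = 0.061) but passed without PBS replicate 4 (edgeR adjusted p = 0.0375) and with library size alone (0.0405). CNTFR had 0 counts in all 10 libraries. ADAM10 and ADAM17, proteases that shed the IL-6 receptor, did not pass either, at -0.05 (SE 0.04) and 0.04 (SE 0.04) on the log2 scale.

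**Figure D3:**
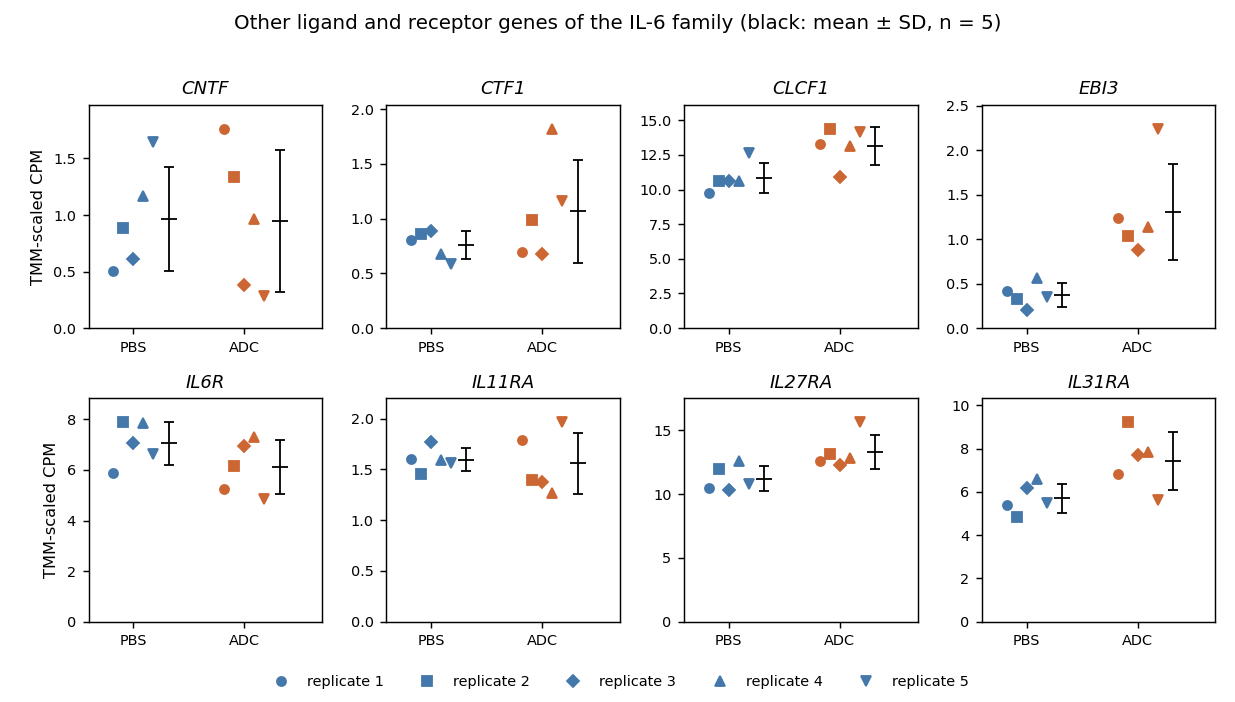
TMM-scaled CPM (y axis, from 0) of the further ligand and receptor genes that passed the filter, in the 5 PBS (blue) and 5 ADC (orange) libraries, with the mean and SD in black. EBI3 is the 1 gene shown whose groups are apart, at up to 0.566 CPM in PBS and from 0.877 CPM in ADC libraries.

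STAT3, the transcription factor that gp130 signalling activates, was 129.8, 129.3, 136, 126 and 134 CPM in PBS replicates 1 to 5. It was 136, 138, 134, 137 and 139 CPM in ADC replicates 1 to 5. Of the 5 ADC libraries 4 lay above the highest PBS library and replicate 3 lay within the PBS range, and the log2 fold change of 0.06 (SE 0.03) did not pass. STAT3 activity depends on phosphorylation, which RNA does not measure.

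SOCS3, the feedback inhibitor of gp130, was 34.4, 34.4, 30.9, 33.6 and 29.3 CPM in PBS replicates 1 to 5. It was 30.0, 27.2, 25.7, 30.4 and 30.8 CPM in ADC replicates 1 to 5. SOCS3 was thus the 1 gene of the 10 with a lower mean after ADC, but the groups overlapped, and the log2 fold change was -0.17 (SE 0.07, edgeR adjusted p = 0.054). The difference passed without PBS replicate 5 (-0.21, edgeR adjusted p = 0.0285) or ADC replicate 5 (-0.20, edgeR adjusted p = 0.040) and with DESeq2 (adjusted p = 0.04998).

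Among 6 kinase and STAT genes besides STAT3, 2 rose and 1 fell, beside 10.8% and 10% of all tested genes. STAT5A and STAT5B, neighbouring genes of closely similar sequence, rose from 5.97 ± 0.82 to 8.48 ± 1.44 CPM (log2 fold change 0.50, SE 0.13) and from 36.0 ± 1.4 to 41.0 ± 2.6 CPM (0.19, SE 0.06). Both genes had overlapping groups, with edgeR adjusted p of 0.0042 for STAT5A and 0.014 for STAT5B. Reads can be shared between such copies, so each value is uncertain. The kinase genes JAK1, JAK2 and TYK2 stood at 0.06 (SE 0.04), -0.23 (SE 0.10) and -0.06 (SE 0.07) and did not pass.

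Of 7 further feedback inhibitors and phosphatases, 5 passed the filter, of which SOCS2 rose and PTPN11 fell. Of all tested genes, 10.8% were called higher and 10% lower. SOCS2, a STAT5 target that restrains growth hormone signalling, rose by 0.43 on the log2 scale (SE 0.11, edgeR adjusted p = 0.0054), from 9.90 ± 1.90 to 13.3 ± 1.4 CPM. PTPN11, the gene of the phosphatase SHP2 that docks at the same gp130 site as SOCS3, fell by 0.13 (SE 0.03, edgeR adjusted p = 0.0049), from 436 ± 17 to 397 ± 18 CPM. The groups overlapped for both genes. CISH, PIAS3 and PTPN2 were not called, and SOCS1, with 1 to 16 counts per library, was not tested.

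CEBPD, the C/EBP factor that acute phase signals induce, was 9.10, 8.60, 9.67, 9.12 and 10.2 CPM in PBS replicates 1 to 5. It was 31.3, 23.2, 23.3, 22.7 and 27.4 CPM in ADC replicates 1 to 5. The lowest ADC library was more than 2-fold above the highest PBS library, and the log2 fold change of 1.45 (SE 0.09), or 2.73-fold, was the largest of the 10 genes. ADC replicate 1 was highest for CEBPD, as it was for IL11.

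CEBPB, named NF-IL6 for its binding at the IL6 promoter, was 69.1, 76.3, 69.3, 71.0 and 73.8 CPM in PBS replicates 1 to 5. It was 78.5, 77.1, 74.0, 76.6 and 83.5 CPM in ADC replicates 1 to 5. Both groups shared the stretch from 74.0 to 76.3 CPM, and the log2 fold change of 0.12 (SE 0.04, edgeR adjusted p = 0.060) was not called. It passed without PBS replicate 2 (0.14, edgeR adjusted p = 0.025) or ADC replicate 3 (0.13, edgeR adjusted p = 0.042), with DESeq2 (adjusted p = 0.045), with library size alone (0.022) and with a mean of at least 1 CPM as the filter (0.044). C/EBP-beta is also made in isoforms by choice of start codon, which gene counts do not show.

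Of 5 other C/EBP genes 3 passed the filter, and 0 rose (edgeR, with 0 higher at an unadjusted p under 0.05, by DESeq2 and by limma-voom) and 1 fell. Over all tested genes those shares were 10.8% and 10%. CEBPG, whose protein pairs with other C/EBP factors and lacks their activation domain, was 39.3, 35.2, 34.8, 37.9 and 33.6 CPM in PBS replicates 1 to 5. It was 30.7, 31.5, 29.8, 32.02 and 28.0 CPM in ADC replicates 1 to 5. Every ADC library was below every PBS library, with a log2 fold change of -0.25 (SE 0.06, edgeR adjusted p = 0.0027). DDIT3, the stress-induced factor CHOP, and CEBPZ were not called (0.19, SE 0.13, and -0.05, SE 0.04). CEBPA had at most 7 counts in a library and CEBPE 0 in all 10.

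Genes that STAT3 and C/EBP factors are known to activate, with acute phase genes, formed the longest further list. Of its 27 members 12 passed the filter, of which 9 rose and 0 fell (edgeR, with 0 lower at an unadjusted p under 0.05, by DESeq2 and by limma-voom), while 10.8% of all tested genes were called higher and 10% lower. The median log2 fold change of the 12 was 0.42, against -0.00 over all tested genes. The 15 members that did not pass had at most 12 counts in any library, and 9 of them had 0 in all 10. Among these 15 are acute phase genes of the liver, such as CRP, HP and the fibrinogen genes FGA, FGB and FGG. The list was written with results of these data known, and several of its genes are also NF-kB targets.

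BCL3, an atypical IkB protein and transcriptional coregulator, was 5.92, 6.08, 5.18, 5.23 and 4.83 CPM in PBS replicates 1 to 5. It was 15.0, 10.2, 11.1, 14.3 and 11.9 CPM in ADC replicates 1 to 5. No library of 1 group came near the other, and the log2 fold change was 1.195 (SE 0.12, edgeR adjusted p = 3.7e-09). C3, the central complement component, went from 27.1 ± 1.8 to 53.3 ± 5.3 CPM (0.98, SE 0.06, edgeR adjusted p = 6.2e-13). BCL6, a transcriptional repressor, went from 14.2 ± 1.5 to 19.7 ± 1.5 CPM (0.47, SE 0.08, edgeR adjusted p = 9.7e-05). The groups did not overlap for any of the 3 genes. The other 6 that rose, SAA1, SERPINA1, IRF1, PIM1, JUNB and IL4R, changed by 0.75 (SE 0.17), 0.63 (SE 0.14), 0.40 (SE 0.10), 0.33 (SE 0.08), 0.27 (SE 0.05) and 0.20 (SE 0.05) on the log2 scale, and SERPINA1 alone of the 6 had overlapping groups. The survival gene MCL1 (-0.02, SE 0.03), FOS (0.43, SE 0.22) and TIMP1 (0.08, SE 0.06) were not called.

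**Figure D4:**
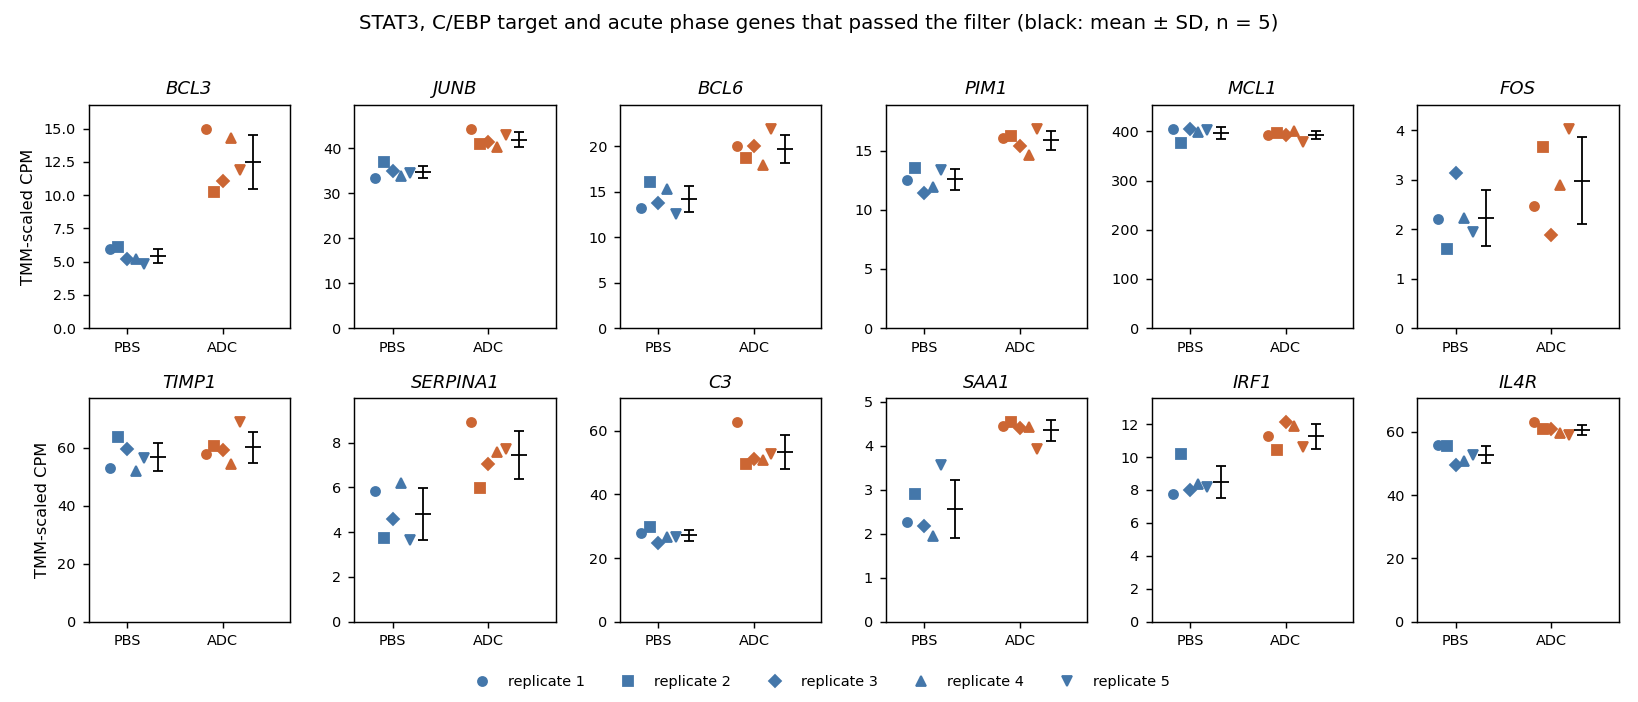
TMM-scaled CPM (y axis, from 0) of the 12 STAT3, C/EBP target and acute phase genes that passed the filter, in the 5 PBS (blue) and 5 ADC (orange) libraries, with the mean and SD in black. BCL3, C3, BCL6, PIM1, JUNB, SAA1, IRF1 and IL4R have all ADC points above all PBS points.

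Levels can be set roughly side by side between genes once each is divided by its exon length. That length joins all annotated exons of a gene, and which transcripts were present is not known, so the order is approximate. On that scale (CPM per kb) the order in PBS was CEBPB (36.8 ± 1.6, SD, n = 5), IL6ST (31.997 ± 1.91), STAT3 (14.9 ± 0.4), SOCS3 (11.9 ± 0.8), IL11 (9.26 ± 0.52), OSMR (9.02 ± 0.29), LIF (5.52 ± 0.24), CEBPD (4.29 ± 0.28), IL6 (3.10 ± 0.38) and LIFR (1.58 ± 0.14). IL11 and OSMR overlapped, and all other neighbours in the order were apart. In ADC libraries IL11 stood above STAT3, at 18.6 ± 2.3 against 15.5 ± 0.2 CPM per kb, and CEBPD (11.7 ± 1.7), OSMR (10.97 ± 0.35) and SOCS3 (10.5 ± 0.8) overlapped as neighbours. LIF (7.65 ± 0.45) and IL6 (7.06 ± 1.052) also overlapped. CEBPB and IL6ST stayed highest in both groups, at 39.8 ± 1.8 and 33.3 ± 1.4 CPM per kb after ADC, and LIFR lowest, at 1.80 ± 0.17.

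**Figure D5:**
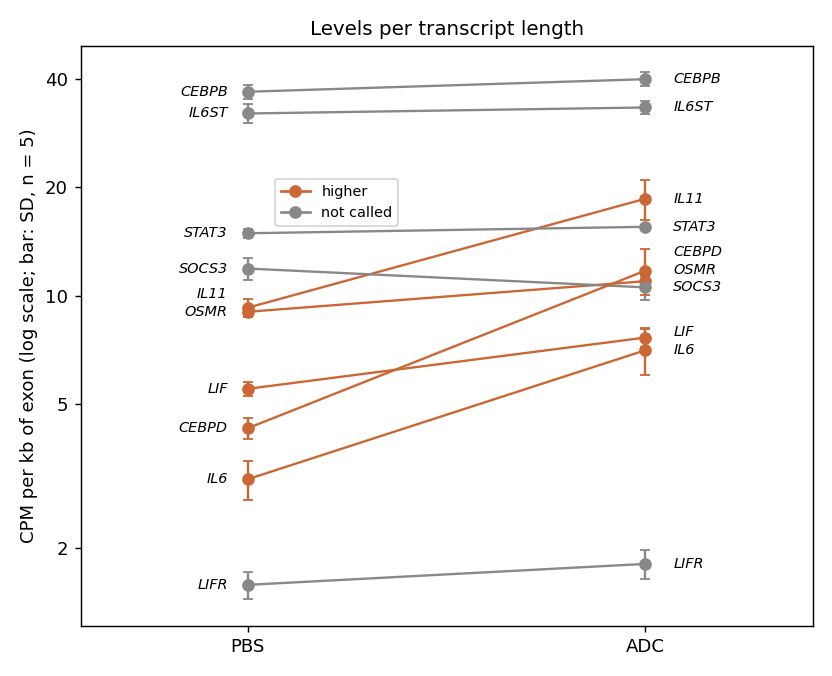
Mean CPM per kb of exon (log scale, bar: SD, n = 5) of the 10 genes in PBS and ADC libraries, with lines joining the means of a gene. CEBPD crosses LIF, OSMR and SOCS3 between the groups, and IL11 crosses SOCS3 and STAT3.

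Genes whose profiles over the 10 libraries lay closest to IL6, LIF and CEBPD were sought among 12049 other tested protein-coding genes. Closeness was the root mean square difference of log2 CPM after centring each gene on its own mean, so the size of the group difference weighs most. Nearest to IL6 were the granulocyte growth factor gene CSF3 (0.119), ASS1, an enzyme of arginine synthesis (0.162), and the chemokine gene CXCL3 (0.179). Nearest to LIF were FHOD3 (0.0635), PBXIP1 (0.0639) and the matrix gene TNC (0.0651). Nearest to CEBPD were the chemokine gene CXCL8 (0.110), the plasminogen activator gene PLAT (0.115) and the plakoglobin gene JUP (0.146).

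Leukocytes and endothelial cells also make these cytokines, and their markers were low in all libraries. The 18 leukocyte markers summed to 0.920 to 2.87 CPM in PBS and 2.32 to 3.08 CPM in ADC libraries, with means of 1.78 ± 0.80 and 2.76 ± 0.28 CPM (exact permutation p = 0.040, two-sided, SD, n = 5). The macrophage receptor CSF1R made up most of this, and without it the difference of the means was 0.133 CPM (exact permutation p = 0.39, n = 5 per group). The pan-leukocyte gene PTPRC had a mean of 0.0136 CPM in PBS and 0 in ADC libraries, and 8 markers, CD3E and LYZ among them, had 0 counts in all 10. The difference with CSF1R also missed the threshold without PBS replicate 1, 3 or 4 or ADC replicate 1, 3, 4 or 5 (exact permutation p of 0.0556 to 0.0794, n = 4 against 5). The 5 endothelial markers summed to 0.681 to 1.22 CPM in PBS and 2.02 to 3.06 CPM in ADC libraries, mostly from PECAM1, while CDH5 had a mean of 0 in PBS libraries and 0.121 CPM after ADC. PECAM1 was called higher, from 0.576 ± 0.112 to 1.98 ± 0.34 CPM. The part of such cells in the cytokine values was not tested.

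On hg38, IL6 (ENSG00000136244) lies on chromosome 7 from 22725884 to 22732002, IL11 (ENSG00000095752) on chromosome 19 from 55364389 to 55370463 and LIF (ENSG00000128342) on chromosome 22 from 30240447 to 30246851. STAT3 (ENSG00000168610) and SOCS3 (ENSG00000184557) lie on chromosome 17, from 42313324 to 42388568 and from 78356778 to 78360077, and CEBPB (ENSG00000172216) lies on chromosome 20 from 50190734 to 50192689. Counts are sums over whole genes, so no exon is singled out. CEBPB shares 11.8% of its exonic bases with the antisense gene CEBPB-AS1, which had 4 to 22 counts per library, while IL11, STAT3, SOCS3 and CEBPD share none.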

How the data were processed

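The authors deposited 1 table of raw counts by gene for the 10 libraries. The build is hg38 per the submitters' processing notes, which list HISAT2, HISAT and TopHat2 but not what each did. For the counter, strand and annotation, the sources used here name nothing. Coordinates and lengths of the 10 genes equal those of GENCODE release 29, from which exon overlap was taken. Even numbers made up 65.4% to 67.3% of counts of 2 to 21 and 49.0% to 50.6% of counts of at least 1000. Mates may thus have been counted singly, and limits drawn from 0 counts would then be too low. Groups come from the treatment labels.

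The filter was filterByExpr with a minimum count of 10 and a minimum total of 15. The test was edgeR 4.0.16 in R 4.3.3 with TMM factors of 0.979 to 1.02. Each SE is the size of the log2 fold change over the root of its F statistic. The marker sum was compared by an exact permutation test over 252 regroupings. The fit was tested on simulated data. Within groups no library pair agreed within sampling noise (chi-square over its degrees of freedom of 5.18 to 16.5).

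The members and the further lists were chosen with earlier results of these data known. Named are all members, the further ligand and receptor genes that passed the filter, up to 3 called genes per direction of each further list, where reported, and the 3 nearest profiles of IL6, LIF and CEBPD, which took the place of CEBPB because it was not called. JAK, ADAM, PIAS3, PTPN2, CISH, DDIT3, CEBPZ and the other target genes were added after their values were seen, as were untested genes. Alternatives were DESeq2 1.42.0, limma-voom 3.58.1, other scalings and filters, halved counts, a replicate block and leaving out each library. Some genes of the lists are not reported here.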

Additional observations from a re-analysis of the deposited data

Results flagged for a closer look

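In groups of 5 libraries, the gap between the highest or lowest library and its nearest neighbour was compared with the group's range, for 54 groups of named genes. A gap over 0.71 of the range was found in 4, and chance alone gives about 1 in 20 groups. IL6 was 18.4 CPM in ADC replicate 5, with the next library at 14.6 CPM, and without it the log2 fold change of IL6 was 1.097. EBI3 was 2.24 CPM in the same library, with the next library at 1.24 CPM. IL27RA was 15.6 CPM there too, with the next library at 13.1 CPM. C3 was 62.6 CPM in ADC replicate 1, with the next library at 52.8 CPM.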

How the results depend on the processing

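The calls of IL6, IL11, LIF, OSMR and CEBPD kept their direction and their side of the threshold under all alternatives, as in all 19 fits including the one reported. The 0 genes of the 10 called lower became 1, SOCS3, with DESeq2 and with the replicate number as a block, and ran from 0 to 1 on leaving out each library (1 without PBS replicate 5 or ADC replicate 5). Same-numbered libraries deviated together at correlations of -0.00717 to 0.0404, and 0 of 5 PBS libraries correlated best with its own number. No strong pairing by number was thus seen, but a paired design with a small shared effect would not show in these correlations. The block gave 3152 called genes against 3018, and leaving out each library gave 2491 to 2980.

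The leukocyte marker difference of 0.976 CPM was 0.133 without CSF1R (exact permutation p = 0.389, n = 5 per group) and ran from 0.76 to 1.249 on leaving out each library. For CNTF the log2 fold change became 0.005143 with library size alone and ran from -0.3691 to 0.2656 on leaving out each library. For IL11RA it ran from -0.1255 to 0.03348. The cause of these shifts was not tested.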
